A study of Mus musculus with 12 samples.

Results

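Pcbp3 (gene 59093) lies on chromosome 10 at 76761854 to 76962117 of mm10, a body of 200264 nt, and encodes a poly(C)-binding protein. It held more listed clusters of RNA-binding protein contacts than any other gene in a study of 3 proteins, and was chosen for that. A cluster is a stretch of the genome that the authors listed because reads gathered there. Members are the clusters whose centre lies in that body: 391 of 36227 for Puf60 with exon 5, 236 of 39454 for Puf60 lacking it, and 640 of 49260 for Rbm38, which makes 1267 of 124941 in all. The next gene, Samd5, had 1062 listed clusters over the 3 tables. Within the table of Puf60 lacking exon 5, Samd5 stood first with 241 and Pcbp3 second. Since the gene was picked by number of clusters in these same tables, its counts and log2 folds are a description and carry no test.

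The data come from iCLIP, in which ultraviolet light fixes proteins to RNA before the protein is pulled down and its RNA fragments are sequenced. N2A cells, a mouse neuroblastoma line, carried 1 of 3 doxycycline-driven transgenes placed by the Flp-in system: Puf60 with exon 5, Puf60 lacking exon 5, or Rbm38. All cells, those for the inputs included, received 1 µg/ml doxycycline and 150 mJ/cm2 of ultraviolet light, and the pulldown used a Flag antibody. Each protein had 3 CLIP libraries and 1 size-matched input, which is RNA of the lysate sized on a protein gel without pulldown, for 12 samples. Induction lasted 48 h for the CLIP libraries of Puf60 with exon 5. It lasted 24 h for the input of that line, and for every library of the other lines. In every comparison of the isoforms, exon 5 and the length of induction cannot be told apart. Each log2 fold of Puf60 with exon 5 also sets CLIP after 48 h against input after 24 h. In those values, pulldown and length of induction cannot be told apart. Comparisons of Puf60 with exon 5 with Rbm38 carry the same limit. The labels do not say whether a line is 1 clone.

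Pcbp3 belongs to the poly(C)-binding family, proteins with KH domains that hold cytosine-rich single-stranded RNA and act in splicing, stability and translation of transcripts. Puf60 joins U2af in recognising the pyrimidine tract before 3′ splice sites, so its contacts are looked for in introns, just upstream of exons. Rbm38 has an RNA recognition motif and is best known for binding AU-rich and U-rich elements in 3′ untranslated regions of p53 network transcripts. Here Pcbp3 is described as an RNA that these proteins touch, not as a protein.

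The values are the authors' own, 1 log2 fold, p-value and adjusted p per cluster, with the log2 fold read as CLIP over input. Values per library were not used here, which leaves the replicate spread and the depth of each cluster unknown. How much Pcbp3 RNA the cells held was not analysed here, and fewer cells with the RNA cannot be told apart from less RNA per cell. "Enriched" means a deposited adjusted p under 0.05. Intervals are 95% Wilson intervals, which cover counting error only and treat clusters as independent. Neighbouring clusters are not independent, so the intervals may be too narrow. They are no test against the whole-table shares. Exons, introns and the sequence under the clusters were not analysed here.

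Rbm38 clusters lay throughout Pcbp3, and those of the Puf60 isoforms at fewer places. Listed Rbm38 clusters covered 30.9% of the gene body, those of Puf60 with exon 5 covered 13.7%, and those of Puf60 lacking it 7.39%. Among Rbm38 clusters 296 of 640 were enriched (46.25%, 42.4 to 50.1), beside 50.9% over the whole Rbm38 table. For Puf60 with exon 5, 92 of 391 were enriched (23.5%, 19.6 to 28.0), beside 39.1% over its table. For Puf60 lacking exon 5, 56 of 236 were (23.7%, 18.7 to 29.6), beside 36.1%. By number of enriched clusters Pcbp3 ranked first among genes for Rbm38 and for Puf60 with exon 5, and second for Puf60 lacking it. A stricter adjusted p under 0.01 left 85, 53 and 284 clusters, in the order with exon 5, lacking exon 5, Rbm38, beside 37.9%, 34.6% and 49.8% of the tables. Asking for a log2 fold of at least 1 as well as an adjusted p under 0.05 left 68, 44 and 245, beside 34.9%, 31.6% and 46.1%.

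Most Rbm38 clusters in the gene were above input, and a smaller majority of Puf60 clusters were below it. In the authors' deposited table for Rbm38, the log2 folds ran from -1.10 to 3.68 with a median of 1.03, and 579 of 640 were above 0. The median over that whole table was 1.04, close to that of Pcbp3, but the spread differed. Above 0 lay 90.5% of the Pcbp3 clusters and 74.4% of the table. The lower quartile was 0.46 in Pcbp3 and -0.02 over the table. For Puf60 with exon 5 the authors' deposited table gave -2.19 to 4.96 with a median of -0.12, against 0.24 over the table, and 177 of 391 were above 0. Puf60 lacking exon 5 ranged from -1.98 to 4.48 in the authors' deposited table. Its median was -0.13 against 0.11, and 102 of 236 were above 0. These isoform shares above 0, 45.3% and 43.2%, stood beside 56.1% and 53.0% over the whole tables. Each Puf60 list thus joined a majority near or under input to a minority far above it. Enriched clusters had a median log2 fold of 1.70 with exon 5, 2.08 lacking it and 1.57 for Rbm38 in the authors' deposited tables. Over the whole tables these medians were 2.89, 2.80 and 2.33, so the median enriched cluster of Pcbp3 stood lower than that of the table for each protein.

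Few clusters had a deposited adjusted p just above the threshold. Of those not enriched, 288, 175 and 337 had an adjusted p of 1 in the authors' deposited tables, and 11, 5 and 7 had one between 0.05 and 1. In the authors' deposited tables the last enriched cluster with exon 5 had an adjusted p of 0.0449 and a log2 fold of 0.69, and the first one left out 0.0655 and 0.58. Lacking exon 5 the authors' deposited table gave 0.0276 and 0.77, then 0.0779 and 0.54. For Rbm38 the corresponding values in the authors' deposited table were 0.0465 and 0.48, then 0.0662 and 0.44. Among the 288, 175 and 337 clusters, 22, 5 and 196 had a deposited p under 0.05. How near those lay to the threshold cannot be read from the adjusted p.

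All 1267 clusters were read as lying on 1 strand. Cluster starts in the tables, counted from 0, leave a remainder of 0 or 35 when divided by 50, which was taken to mark the strand. Among protein-coding genes that RefSeq's promoter table (GRCm38.p6, the assembly of mm10) puts on the plus strand, 93.6%, 94.0% and 94.7% of clusters in a single gene had the remainder 0, in the order with exon 5, lacking exon 5, Rbm38. In genes on the minus strand 94.1%, 94.4% and 94.6% had 35. Every cluster in Pcbp3 had 35, in each table, enriched or not, and 0 of 391, 0 of 236 and 0 of 640 had the other remainder. From this remainder the transcription of Pcbp3 was read as running from the higher coordinate to the lower, so the clusters hold no separate measure of antisense contacts. The 5′ end is then at 76962117 and the 3′ end at 76761854. A lack of clusters at the less frequent remainder was not rare: 74 of 127 genes with at least 100 listed clusters had none.

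The clusters filled the gene from end to end and stopped at its borders. The outermost starts and ends were 76761886 and 76961885 with exon 5, 76761936 and 76961885 lacking it, and 76761886 and 76961935 for Rbm38. The lists thus began 32, 82 and 32 nt inside the 3′ border and ended 232, 232 and 182 nt inside the 5′ border. Beyond the 5′ border no cluster was listed for 76333, 76383 and 79883 nt, and beyond the 3′ border for 204753, 162668 and 207953 nt. No annotated gene overlaps the body. Of 15 genes within 200000 nt on either side, 4 had a listed cluster: Slc19a1, a folate transporter gene, with 6, 1 and 4, Col18a1 with 1 for Rbm38, Col6a2 with 1 for Puf60 lacking exon 5, and the noncoding 4930483K19Rik with 6, 3 and 3. Col18a1 and Col6a2 encode collagen chains, and Col6a1, the nearest coding gene on the 3′ side, had none.

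Within the gene, coverage was broken into short pieces. The commonest cluster was 50 nt long, the smallest unit of the tables: 289 of 391 with exon 5, 192 of 236 lacking it and 389 of 640 for Rbm38. The median distance to the next cluster was 200 nt, 300 nt and 100 nt in that order, and 347 of 639 Rbm38 gaps were at most 100 nt. Taken over all 3 tables, the widest stretches with no cluster spanned 3750 nt (76919986 to 76923735), 2850 nt (76896536 to 76899385) and 2200 nt (76828136 to 76830335). In every table the enriched share was lowest among 50-nt clusters. For Puf60 with exon 5 it was 17.0% of 50-nt clusters, 30% of 100-nt clusters and 68.8% of longer ones, beside 35.6%, 50.6% and 51.9% over its whole table. For Rbm38 the shares were 41.6%, 54.2% and 52.6%, beside 46.1%, 60.1% and 72.2%. The lower share of 50-nt clusters is thus found over these whole tables too.

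**Figure D1:**
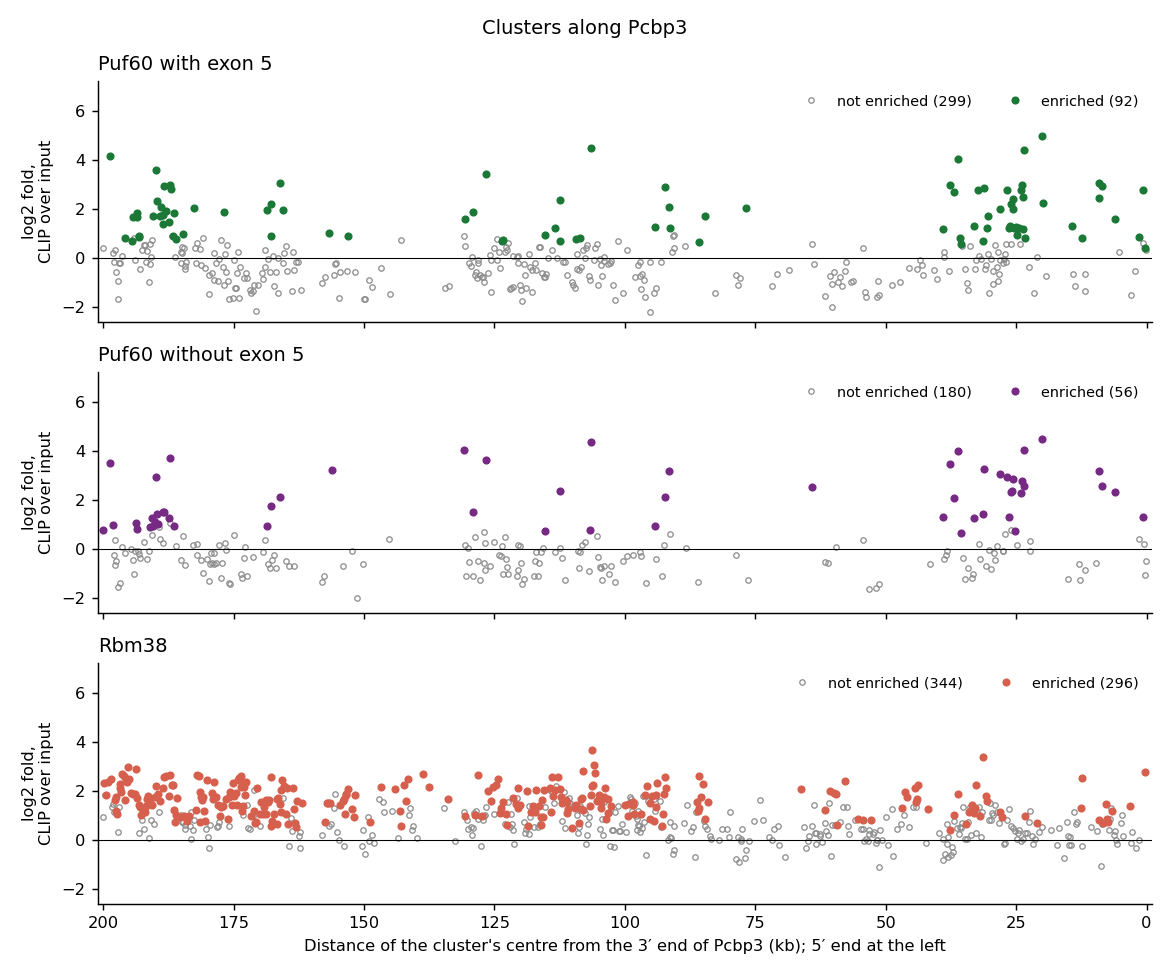
Deposited log2 fold of CLIP over input for each cluster of Pcbp3, plotted against the distance of its centre from the 3′ end in kb, with the 5′ end at the left and 1 panel per protein. Filled points are enriched (92, 56 and 296) and open points are not; Puf60 points above 2 gather near both ends and in scattered places between, while Rbm38 points rise towards the 5′ end.

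The enriched share ran differently along the gene for Rbm38 and the Puf60 isoforms, but was high close to the 5′ end for all 3. The body was divided into 10 equal parts of about 20 kb, numbered from the 3′ end. For Rbm38 the enriched share was highest towards the 5′ end, at 62 of 87 in part 10 (71.3%) and 63 of 84 in part 9 (75%). It was 10 of 42 in part 1 (23.8%), 18 of 75 in part 2 (24%) and 3 of 41 in part 4 (7.32%). With Benjamini-Hochberg adjustment over the deposited p-values, the calls in parts 1, 2 and 4 rose to 50%, 61.3% and 36.6%, and those in parts 9 and 10 to 90.5% and 92.0%. In parts 1, 2 and 4, 13, 29 and 12 clusters had a p under 0.05 and an adjusted p of 1 in the authors' deposited table. The median log2 fold by part in the authors' deposited table for Rbm38 was 0.49, 0.63, 0.64 and 0.21 in parts 1 to 4, then between 1.04 and 1.47 in parts 5 to 10. By Benjamini-Hochberg calls the isoforms had 47.7% with exon 5 and 48.8% lacking it in part 2, below Rbm38 at 61.3%. Parts 6 to 10, on the 5′ side of the midpoint, held 74.7% of the enriched Rbm38 clusters and 56.4% of those listed. For the Puf60 isoforms they held 48.9% and 50% of the enriched clusters and 62.4% and 65.7% of those listed. In protein-coding genes of at least 100000 nt, the 5′ side of the midpoint held 39.0% and 38.8% of the enriched Puf60 clusters. It held 48.6% and 44.6% of those listed, so the enriched share lay below the listed one there too. For Rbm38 it held 44.5% of the enriched clusters and 51.7% of those listed.

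Both Puf60 isoforms had most of their enriched clusters in parts 2 and 10. Part 2 lies 20 to 40 kb from the 3′ end. With exon 5, parts 1 and 2 together held 40 enriched clusters of 85 listed (47.1%), and part 10 held 25 of 65 (38.5%). Part 1, at the 3′ end itself, held 10 of 20 and part 2 held 30 of 65. Parts 3 and 4 held 1 of 36, and parts 5 to 8 held 20 of 145 (13.8%). Part 9 had 6 of 60 (10%), where Rbm38 had its highest share. Puf60 lacking exon 5 had its highest shares in parts 1, 2 and 10. It had 24 of 56 in parts 1 and 2 (42.9%), and 17 of 49 in part 10 (34.7%). Part 1 held 4 of 13 and part 2 held 20 of 43. Elsewhere it had 1 of 11 in parts 3 and 4, 11 of 85 in parts 5 to 8 (12.9%) and 3 of 35 in part 9. Part 3, which lies 40 to 60 kb from the 3′ end, had no enriched Puf60 cluster among 23 and 6 listed, and 15 of 48 for Rbm38. Its median log2 folds in the authors' deposited tables were -0.85, -1.02 and 0.64. These orders across parts were not tested, since parts of 1 gene are not replicates.

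**Figure D2:**
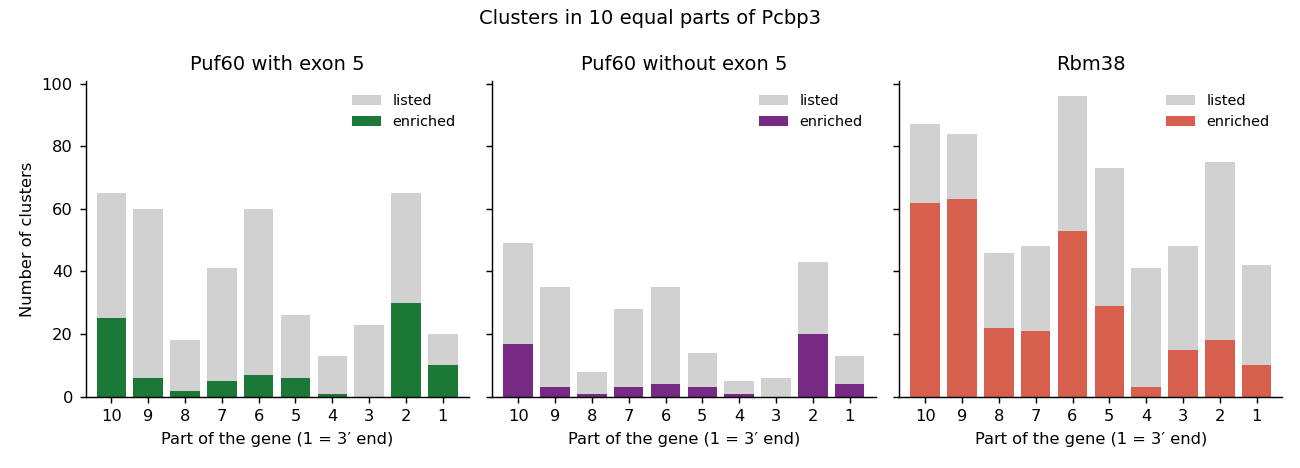
Number of listed clusters (grey bars) and of enriched clusters (coloured bars) in 10 equal parts of Pcbp3, part 10 at the 5′ end on the left and part 1 at the 3′ end on the right, 1 panel per protein. The tallest enriched bars are part 2 for both Puf60 isoforms (30 and 20 clusters) and parts 9 and 10 for Rbm38 (63 and 62).

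The strongest Puf60 site lay about 20 kb from the 3′ end. At 76781786 to 76781985 the authors' deposited tables gave log2 folds of 4.96 with exon 5 and 4.48 lacking it, over the same 200 nt. For the Rbm38 cluster there, 76781836 to 76781985, the authors' deposited table gave 0.52 and an adjusted p of 1. A similar contrast stood at 76785186 to 76785335, with 4.38 and 4.05 for the isoforms and 0.98 for the overlapping Rbm38 cluster in the authors' deposited tables. At 76797836 the isoforms had 4.03 and 3.98 and Rbm38 0.26 in the authors' deposited tables. These 3 sites in part 2 had the widest differences of Puf60 lacking exon 5 over Rbm38 (3.96, 3.07 and 3.72) among positions listed for all 3 proteins.

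The second strongest Puf60 site was also enriched for Rbm38, at a lower value. In part 6, near the middle, the cluster at 76868336 to 76868435 had 4.46 with exon 5 and 4.34 lacking it in the authors' deposited tables, where Rbm38 had 1.39 (76868386 to 76868535). The lowest Puf60 values with exon 5 were -2.19 at 76857036 to 76857085 and -2.17 at 76932586 to 76932685 in the authors' deposited table. Puf60 lacking exon 5 had no cluster at either place, and Rbm38 was enriched at both, with 0.86 and 0.72 in the authors' deposited table. The lowest values lacking exon 5 were -1.98 at 76913086 to 76913185 and -1.64 at 76814986 to 76815035 in the authors' deposited table, where neither of the other proteins had a cluster.

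Rbm38 had its highest log2 folds at other places. The leading cluster, 76868186 to 76868235, had 3.68 in the authors' deposited table and no Puf60 counterpart, although the strong Puf60 site of part 6 begins 100 nt further along. Next came 76792886 to 76793335, 450 nt long, with 3.39 in the authors' deposited table. It overlapped enriched clusters of both isoforms, at 2.84 (76792986 to 76793135) and 3.25 (76793036 to 76793135) in the authors' deposited tables. At no other matched position did all 3 proteins reach 2.84. Then followed 76867586 to 76867835 (3.07) and 76957086 to 76957135 (2.98) in the authors' deposited table. The first of these met a Puf60 cluster with exon 5 at 0.42 in the authors' deposited table and none lacking it, and the second met none of either isoform. The lowest Rbm38 values were -1.10 at 76813136 to 76813235 and -1.06 at 76770486 to 76770535 in the authors' deposited table. The former also had low Puf60 values, -1.53 and -1.44, in the authors' deposited tables.

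Set side by side in windows of 50 nt, most of the listed windows were listed for Rbm38 alone. Some cluster covered 1445 of the 4005 whole windows in the body. Of these, 789 (54.6%) were listed for Rbm38 alone, 161 (11.1%) for all 3 proteins, 226 with exon 5 and Rbm38, 62 lacking exon 5 and Rbm38, 29 for both isoforms without Rbm38, 134 with exon 5 alone and 44 lacking exon 5 alone. By enriched windows the division was sharper: 529 of 725 (73.0%) were enriched for Rbm38 alone and 34 (4.69%) for all 3. The same division over the whole tables was not made. The Rbm38 table is the longest, at 49260 clusters against 36227 with exon 5 and 39454 lacking it. Its enriched share is also the highest, 50.9% against 39.1% and 36.1%. The surplus of Rbm38 windows is thus not shown to be particular to Pcbp3. A window takes the log2 fold of the cluster covering it, so windows of 1 cluster repeat 1 value and are not separate measurements. In the 161 windows that all 3 tables listed, the median log2 fold was 1.22 for Rbm38, 0.60 with exon 5 and 0.38 lacking it in the authors' deposited tables. Rbm38 was above both isoforms in 93 of them and below both in 47. Enrichment in these windows was found for all 3 proteins in 34, for both isoforms and not Rbm38 in 29, for Rbm38 and neither isoform in 39, and for none in 33.

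Counted by cluster, the Puf60 lists lay largely within the Rbm38 list. Overlap of at least 1 nt with a listed Rbm38 cluster was found for 288 of 391 clusters with exon 5 (73.7%) and 185 of 236 lacking it (78.4%). In return 255 and 160 of 640 Rbm38 clusters (39.8% and 25%) met a listed cluster with and lacking exon 5. Between enriched clusters the shares fell to 52.2% and 48.2% of the Puf60 lists and 14.5% and 7.77% of the Rbm38 list. With overlap of 50% of both clusters required, 45.0% with exon 5 and 36.4% lacking it met a listed Rbm38 cluster. No comparison with chance or with the whole tables was made, and Rbm38 clusters cover much of the gene.

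Where clusters matched, the log2 folds of Puf60 and Rbm38 were hardly related. Matching each cluster to its largest mutual overlap gave 251 pairs of Rbm38 with Puf60 with exon 5 and 160 with Puf60 lacking it. Over these pairs Pearson's r was 0.18 and 0.07 and Spearman's rho 0.16 and 0.03, given as a description with no p, since the pairs share 1 gene and the libraries. Rbm38 was higher in 196 of 251 and 127 of 160. The difference of Puf60 minus Rbm38 had a median of -1.10 (SD over pairs 1.37) and -1.23 (SD 1.52) in the authors' deposited tables. Only Rbm38 was enriched at 92 and 61 pairs, only Puf60 at 29 and 20, and both at 40 and 22. Among positions listed for all 3, those where Puf60 lacking exon 5 lay farthest below Rbm38 were at 76958536 (2.10 against -0.21 and -1.40 for the isoforms), 76882236 (2.13 against -0.19 and -0.84) and 76882486 (1.70 against 0.05 and -1.11) in the authors' deposited tables. The last of these had a deposited adjusted p of 1 for Rbm38, and the first lies in part 10, within 4 kb of the 5′ end.

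**Figure D3:**
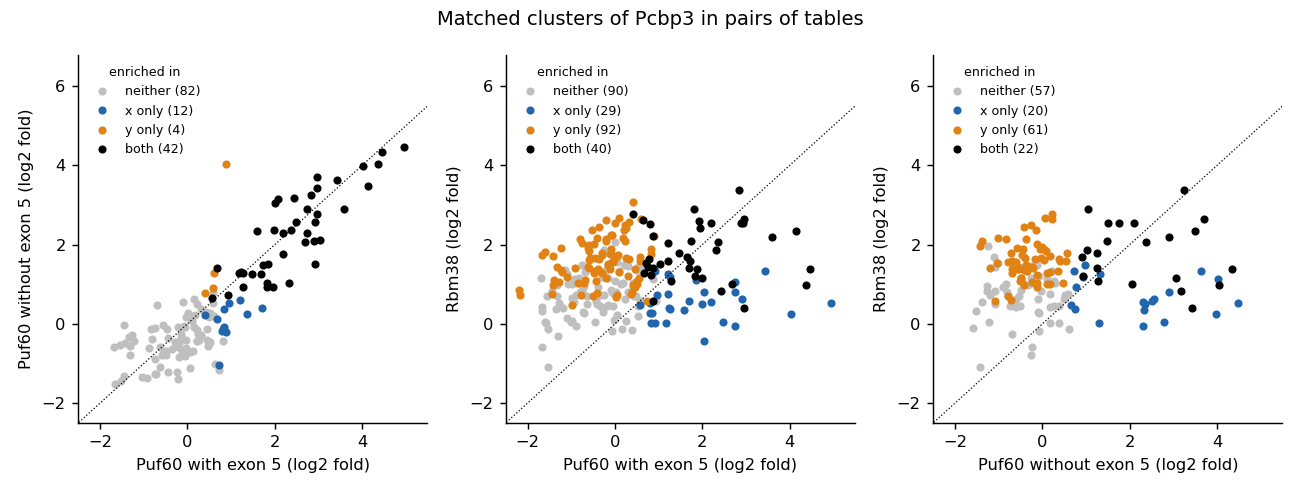
Deposited log2 fold of matched Pcbp3 clusters in each pair of tables, 1 point per pair, coloured by the tables in which the cluster was enriched; the dotted line marks equal values. Of the 140 pairs of the Puf60 isoforms only 1, at 0.88 and 4.03, differs by more than 2, and the differences have an SD of 0.71. The 251 and 160 pairs with Rbm38 spread more widely, on both sides of the line.

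The values of the Puf60 isoforms were closely related where both were listed, and the list with exon 5 was the longer. In all, 140 pairs matched, 72 of them with the same start and end. Over these, again as a description, Pearson's r was 0.88 and Spearman's rho 0.82. The difference with exon 5 minus lacking it had a median of 0.22 (SD over pairs 0.71) in the authors' deposited tables. With exon 5 was higher at 88 pairs and lower at 52. Both were enriched at 42 pairs, with exon 5 alone at 12, lacking exon 5 alone at 4, and neither at 82. Isoform pairs were likewise not matched over the whole tables.

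In both lists, clusters that met none of the other isoform stood lower than those that did. Of 391 clusters with exon 5, 142 (36.3%) met one of the other isoform, and of 236 lacking it 149 (63.1%) did. The 249 clusters with exon 5 that met none had a median log2 fold of -0.35, and the 142 others 0.41, in the authors' deposited table. Lacking exon 5, the 87 that met none had -0.45 and the 149 others 0.06. The enriched share was alike in the longer and the shorter list, 23.5% and 23.7%. Among enriched clusters 43 of 92 (46.7%) with exon 5 and 47 of 56 (83.9%) lacking it met an enriched cluster of the other isoform. How usual such overlap shares are over the whole tables was not examined, so they are not shown to be particular to Pcbp3. The number of listed clusters was 1.66 times higher with exon 5, and that of enriched ones 1.64 times, although the whole table with exon 5 is the shorter, at 0.918 times. Among 127 genes with at least 100 listed clusters the median of that ratio was 0.946, and 7 had a higher one than Pcbp3. Depth and induction time differ or may differ between the isoforms, and their part in these numbers was not tested.

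Only 1 of the 140 pairs differed by more than 2 on the log2 scale. At 76892586 to 76892685, the same 100 nt in each table, the log2 fold was 0.88 with exon 5, 4.03 lacking it and 1.14 for Rbm38 in the authors' deposited tables. Lacking exon 5 it was among the 4 highest clusters of the gene. With exon 5 the deposited p was 9.95e-11 and for Rbm38 5.49e-27, yet both had an adjusted p of 1 in the authors' deposited tables. The neighbouring cluster with exon 5, 76892486 to 76892535, was enriched at 1.59 in the authors' deposited table, where none lacking exon 5 was listed. At 76892386 to 76892435 the isoforms had 0.50 and 0.17 in the authors' deposited tables. Among positions listed for all 3, the next widest in this direction were at 76791986 (-1.45 against -0.03) and 76890486 (-0.71 against 0.48) in the authors' deposited tables, enriched for neither isoform. In the other direction stood 76885086 (0.71 against -1.04), 76884136 (0.62 against -1.02) and 76950036 (2.93 against 1.505) in the authors' deposited tables. Only the last was enriched for both isoforms. A wider pair, 76939186 to 76939235 (0.72 against -1.17 in the authors' deposited tables), is enriched for neither isoform and is not matched in all 3 tables. At the 5 positions listed for all 3 the isoforms' clusters also differ in extent. Without values per library, none can be set against the spread between replicates.

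At 21 of the 113 positions matched in all 3 tables, all 3 proteins were enriched. The same count over the whole tables was not made. The leading ones after 76792886 were at 76948836 to 76949185 (2.96 with exon 5, 3.70 lacking it and 2.64 for Rbm38), 76960536 (4.14, 3.49 and 2.35), 76951586 (3.59, 2.91 and 2.19) and 76854086 to 76854135 (2.89, 2.10 and 2.56), in the authors' deposited tables. The first 3 of these lie in part 10, within 14 kb of the 5′ end, and the last in part 5. By part, 10 of the 21 positions lay in part 10, 6 in part 2 and 1 in part 1, where 30, 22 and 5 of the 113 positions matched in all 3 tables lay.

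The longest clusters were not always the highest. With exon 5 they were 76951586 to 76951985 (3.59) and 76761986 to 76762385 (0.41), each of 400 nt, then 76952186 to 76952485 (1.69) and 76793536 to 76793785 (-0.03) in the authors' deposited table. Lacking exon 5 they were 76762136 to 76762385 (250 nt, 0.22), the strongest site at 76781786, and 76877036 to 76877235 (200 nt, 0.73) in the authors' deposited table. The 5 longest are not a unique set for Puf60, since 10 clusters with exon 5 tie at 200 nt and 9 lacking it at 150 nt, the sites at 76781786 with exon 5 and at 76785186 and 76797836 lacking it among them. Rbm38 had 2 long clusters in part 2 with modest values, 76788336 to 76788885 (550 nt, 0.80) and 76787136 to 76787635 (500 nt, 0.49), both at an adjusted p of 1 in the authors' deposited table. Within them lay enriched Puf60 clusters, at 2.75 and 2.91 in the first and 1.99 and 2.36 in the second, in the authors' deposited tables. In part 9 the reverse was found between matched clusters. At 76938036 to 76938535 (500 nt) Rbm38 was enriched at 1.65, and the matched isoform clusters had -0.56 and -0.04 in the authors' deposited tables. Within the same stretch both isoforms also had clusters starting at 76938436, with 0.17 and 0.22 in the authors' deposited tables, not enriched.

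The ends of the gene differed between the proteins. At the 3′ end Rbm38 had a single enriched cluster of 700 nt, the longest of its list, at 76761886 to 76762585. The authors' deposited table gave it 2.78 and an adjusted p written as 0. Both Puf60 tables split the same 700 nt into 4 pieces. With exon 5 the pieces had 0.31, 0.41, 0.60 and 2.78 in the authors' deposited table, in order from the 3′ border, and those at 0.41 and 2.78 were enriched. Lacking exon 5 they had -0.50, -1.04, 0.22 and 1.29 in the authors' deposited table, and only the one at 1.29 was enriched. The Puf60 values were thus highest in the stretch farthest from the 3′ border, at 76762536 to 76762585 with exon 5 and 76762436 to 76762585 lacking it. Of all Rbm38 clusters in the gene, this was the only enriched one whose centre lay within 2000 nt of the 3′ end, 1 of 296 (0.338%). Over protein-coding genes of at least 100000 nt whose strand RefSeq's promoter table gives, 797 of 3767 enriched Rbm38 clusters (21.2%) did, and over such genes of any length 43.9%. In the same long genes 44.5% of enriched Rbm38 clusters lay on the 5′ side of the midpoint, against the 74.7% of Pcbp3. The shares within 2000 nt are not like for like, since Pcbp3 was picked for its many clusters and 296 is the divisor. The 3767 clusters of the long genes are spread over 1019 genes. A low share in Pcbp3 is thus no measure of little Rbm38 contact at its 3′ end. All these shares were set side by side without a test.

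At the 5′ end the highest Puf60 cluster was at 76960536 to 76960685, with 4.14 with exon 5 and 3.49 lacking it in the authors' deposited tables. Rbm38 had a cluster of 600 nt there, 76960536 to 76961135, its second longest, with 2.35 in the authors' deposited table. Around it Rbm38 was closely listed, in 13 clusters over the first 3000 nt with log2 folds from 0.92 to 2.49, of which 8 were enriched. The last cluster before the 5′ border, at 76961786 to 76961885, had 0.40 with exon 5 and 0.78 lacking it in the authors' deposited tables.

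**Figure D4:**
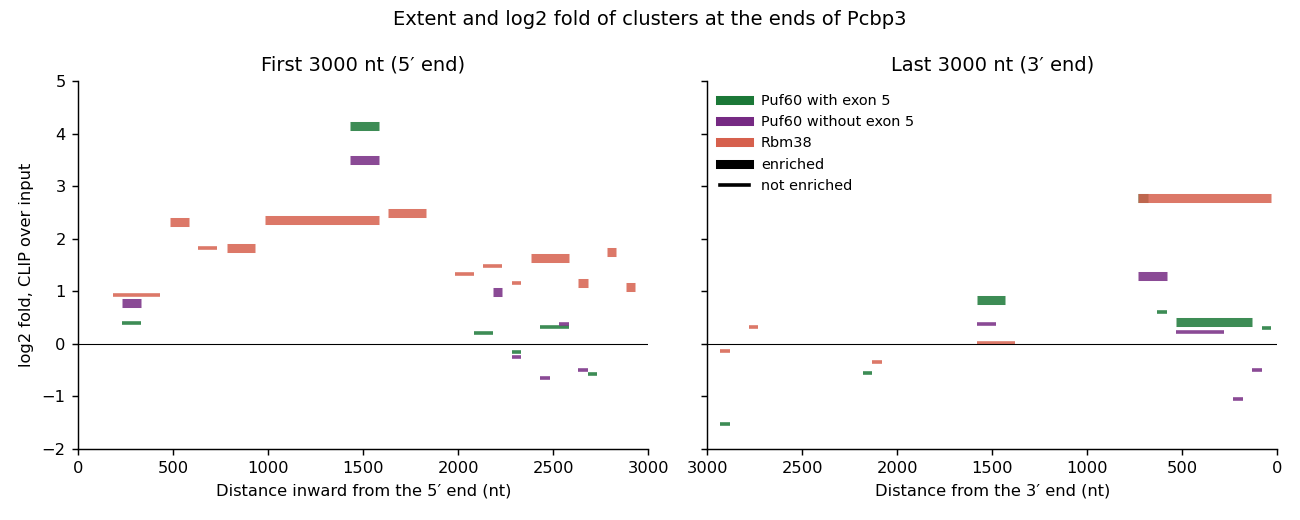
Clusters within 3000 nt of the 5′ end (left) and of the 3′ end (right) of Pcbp3, each drawn as a bar over its extent in nt at its deposited log2 fold; thick bars are enriched and thin bars are not. The Rbm38 bar of 700 nt at the 3′ end stands at 2.78, where 7 of 8 Puf60 bars lie between -1.04 and 1.29.

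The enriched share for Rbm38 rested on how the authors adjusted their p-values. A deposited p under 0.05 stood beside an adjusted p of 1 at 196 of 640 Rbm38 clusters in Pcbp3 (30.6%), against 11.7% of the whole table. What sets these to 1 is unknown here. The smallest such p was 4.65e-77, at 76876236 to 76876585 (log2 fold 2.06) in the authors' deposited table. Among Rbm38 clusters of the gene with a p under 0.05, 39.7% had an adjusted p of 1, beside 18.6% over the table. With Benjamini-Hochberg adjustment computed over the deposited p-values, 480 of 640 Rbm38 clusters were called (75%) beside 61.6% of the table, so Pcbp3 then stood above its table and not below. For the Puf60 tables the same adjustment gave 107 of 391 beside 42.9% and 60 of 236 beside 39.1%, still below. The rise towards the 5′ end remained in the Rbm38 list under it, with 87.0% called in parts 6 to 10 and 59.5% in parts 1 to 5. A log2 fold of at least 1 with no p was reached by 331 Rbm38 clusters (51.7%) beside 50.8% of the table, close to the background. The isoforms reached it at 68 clusters beside 35.7% and 45 beside 32.4%.

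Within its family Pcbp3 stood apart in number, the value it was picked by, and also in length. Its body has 200264 nt, against 29619 for Pcbp2, 12212 for Hnrnpk, 11031 for Pcbp4 and 1710 for Pcbp1. Clusters per length were not compared within the family, so the number is not shown to be particular to Pcbp3 at equal length. Pcbp2, which binds C-rich tracts in many messages, had 39, 30 and 42 listed clusters, in the order with exon 5, lacking exon 5, Rbm38, and 23, 15 and 19 enriched. Hnrnpk, which encodes the protein that gave the KH domain its name, had 27, 31 and 18 listed and 22, 24 and 7 enriched, and Pcbp1, an intronless gene, had 4, 4 and 7 listed and 0, 1 and 2 enriched. Pcbp4 had 5, 5 and 3 listed and 3, 5 and 0 enriched. The 5 genes were all listed in each table, and 4, 5 and 4 of them had an enriched cluster, beside 56.6%, 54.6% and 74.8% of all genes listed in each table. Their strongest Rbm38 clusters in the authors' deposited table were at Hnrnpk (5.02, chromosome 13, 58391186 to 58391535) and Pcbp1 (4.94, chromosome 6, 86524536 to 86524835). Both exceed the highest Rbm38 value of Pcbp3. For Puf60, Pcbp3 had the highest values of the family, 4.96 and 4.48, followed by Hnrnpk with exon 5 (4.37) and Pcbp4 lacking it (4.41) in the authors' deposited tables, although it also has the most clusters from which a highest is taken. Of 30 other genes of KH-domain RNA-binding proteins, 21, 23 and 23 were listed and 15, 16 and 23 had an enriched cluster, with a median enriched share per gene of 50%, 33.3% and 66.7%, beside 27.3%, 20% and 61.5% over all genes listed. In the family of 5 the median share was 59.0%, 50% and 38.9%.

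Per length, Pcbp3 came second among the 9 genes with the most clusters. Pcbp3 had 63.3 listed clusters per 10 kb over the 3 tables, Map1b, a microtubule-associated protein gene, 71.4, Ankrd11 38.2, Huwe1 27.8, Samd5 25.7 and Efna5 24.5. Over the 127 genes with at least 100 listed clusters the median was 23.1, and Pcbp3 ranked 11. Pcbp3 had a higher enriched share for Rbm38 than for either isoform, as did 7 of the 8 genes next in number. The exception was Huwe1, a ubiquitin ligase gene, where 61.0% and 64.9% of Puf60 clusters and 16.2% of Rbm38 clusters were enriched. By distance over 6 values (the enriched share and the share at the less frequent remainder in each table, in percentage points), Hjurp was the most like Pcbp3 of these 127 genes (5.06), followed by Rere (5.23) and Sptbn1 (5.78). Hjurp, which encodes the chaperone of the centromeric histone Cenpa, had 24.4%, 26.1% and 41.9% enriched among 41, 46 and 43 listed clusters, in a body of only 18789 nt.

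**Figure D5:**
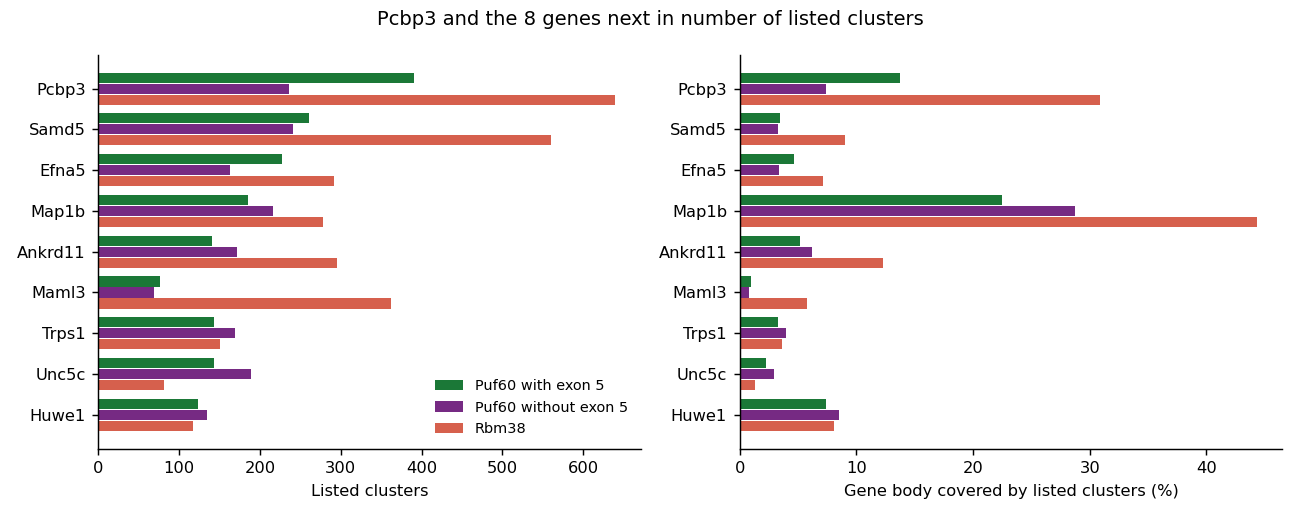
Number of listed clusters (left) and percent of the gene body that they cover (right) for Pcbp3 and the 8 genes next in number, 1 bar per protein. Pcbp3 has the longest bars on the left for Rbm38 and Puf60 with exon 5 (640 and 391), and on the right its Rbm38 bar of 30.9% is exceeded by that of Map1b, 44.3%.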

How the data were processed

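The authors deposited 1 table of clusters per protein, with the log2 fold, p-value and adjusted p-value of each, per the file headers. TopHat and edgeR, and the builds NCBIM37 and mm10, are named in the submitters' processing notes without a role. For the cluster caller and the use of replicates, details were not given in the sources used here. All 3 tables hold 0 further value columns, so no count test was possible. Coordinates are printed 1-based on mm10. Gene bodies came from RefSeq (GRCm38.p6), with 49993 located genes, and a cluster in several bodies counted for each. RefSeq's promoter table held no entry for Pcbp3. Clusters were matched by largest mutual overlap at the same remainder. Work was done in Python 3.11.15 with pandas 2.3.3, and the interval functions were tested on simulated clusters.

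Members and lists were chosen with earlier results of these data known. Named clusters follow a rule: per table the 4 highest enriched and 2 lowest log2 folds and the 5 longest, the 3 widest differences each way at positions listed for all 3, and the 3 widest gaps. Clusters named at the gene's ends, at the 21 shared positions, beside an adjusted p of 1, around 76892586 and at 76939186 were chosen after their values were seen. Named genes are the poly(C)-binding family, neighbours, the 4 genes next in number, and the 3 most like Pcbp3. Huwe1 was added after its values were seen. Alternatives covered the threshold, adjustment, overlap and weighting.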

Additional observations from a re-analysis of the deposited data

How the results depend on the processing

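Depth is unknown and limits every count. No paired analysis was possible because only comparisons, with no values per library, were used here, and no replicate was left out for the same reason. A log2 fold of at least 1 with no p, and Benjamini-Hochberg calls for position along the gene, were chosen after seeing the data. Benjamini-Hochberg moved the enriched Rbm38 clusters from 296 to 480 and their share in parts 6 to 10 from 74.7% to 65.4%. The share in the fullest of the 10 parts moved, with enriched clusters only, from 16.6% to 32.6% with exon 5, from 20.8% to 35.7% lacking it, where the fullest part changed from 10 to 2, and from 15% to 21.3% for Rbm38, where it changed from 6 to 9. By Benjamini-Hochberg calls it was 29.0% with exon 5 and 35% lacking it, and by nucleotides 18.5% for Rbm38. The median log2 fold over enriched clusters was 1.70, 2.08 and 1.57, and weighted by length it was 0.050 with exon 5, which turned from -0.12, and 1.16 for Rbm38. With overlap of 50% of both clusters, 31.5% of the list with exon 5 met the list lacking it and 45.0% met Rbm38. Of the list lacking exon 5, 52.1% met that with it and 36.4% met Rbm38, and of the Rbm38 list 27.5% and 13.4% met those with and lacking exon 5. Between enriched clusters these shares were 46.7%, 52.2%, 83.9%, 48.2%, 14.5% and 7.77% in the same order. The remaining alternatives left the counts within 1.5 times and the share at the less frequent remainder at 0.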
